A study of Mus musculus with 18 samples.

Results

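The mitochondrial carrier family, Slc25, was followed in mouse hepatocytes that lacked or carried Mtdh. Members were all genes of the deposited table whose symbol is Slc25a followed by a number, and 46 of the 16873 listed genes met that rule. RNA was measured in 18 libraries of 6 groups with 3 libraries each. The groups were Mtdh KO and WT hepatocytes given TNFa, KO and WT hepatocytes given TGFb, and KO and WT hepatocytes given conditioned medium (CM). The CM came from Kupffer cells, the resident macrophages of the liver, which had themselves been treated with Py8119-EVPs; Py8119 is a mouse mammary tumour cell line. All mice were age-matched and labelled as normal and free of tumour, and every group received a treatment, so no untreated level can be given. The series describes the 3 libraries of a group as biological replicates, without saying whether each came from its own mouse, so the p-values measure the spread between these libraries. No source used here gives the removed part of Mtdh, the strain, the sex, the doses or the times.

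Slc25 proteins sit mostly in the inner mitochondrial membrane and exchange metabolites, nucleotides, cofactors or ions between the cytosol and the matrix. In liver they link both compartments of the urea cycle, pass citrate out for lipid synthesis, carry acylcarnitines in for oxidation, run the malate-aspartate shuttle and supply ADP and phosphate for ATP synthesis. Substrates are well established for some members and unassigned for others.

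Values are the authors' normalized signal per gene, on a scale shared by the 18 libraries. Estimated depth lay between 19.4 and 35.6 M reads per library, and the table holds no counts, so no counting interval is given. Mtdh itself (chromosome 15, 34082840 to 34145770 on mm39) stood at 581 to 973 in the 9 KO libraries and at 10063 to 13725 in the 9 WT libraries, with no overlap. Hepatocyte markers were abundant in every group, with albumin (Alb) at a mean of 1336700 or more in each group. Kupffer cell and macrophage markers were also detected and were higher in KO: 11 of 12 were called higher averaged over treatments, and their summed signal was 6325 to 7292 in KO and 3402 to 4057 in WT with TNFa, 4935 to 5989 in KO and 2774 to 3316 in WT with TGFb, and 4825 to 5049 in KO and 2337 to 2869 in WT with CM. Of the defining Kupffer cell genes, Clec4f was above 0 in every library and Timd4 was at 0 in the 3 TGFb WT libraries and 1 CM WT library. Summed sinusoidal endothelial markers were also higher in KO, at 4410 to 4529 in KO and 2183 to 2567 in WT with TNFa, 3364 to 3707 in KO and 2560 to 2769 in WT with TGFb, and 3355 to 3427 in KO and 2079 to 2590 in WT with CM. For the average, 3 of 8 of these markers, 1 of 6 stellate markers and 1 of 2 T and NK cell markers were called higher. Of 6 bile duct markers 2 were called lower, and of 9 hepatocyte markers 2 were higher and 3 lower. Of all genes 11.2% were called higher and 9.53% lower. Summed hepatocyte markers were 3.144e+06 to 3.333e+06 in KO and 2.298e+06 to 2.418e+06 in WT with TGFb. With CM they were 2.582e+06 to 2.671e+06 in KO and 2.019e+06 to 2.126e+06 in WT. With TNFa they overlapped, at 1.636e+06 to 1.712e+06 in KO and 1.701e+06 to 1.787e+06 in WT. Alb, at the level given above, weighs heavily in these sums, so they do not describe the markers as a set. It was not called in KO against WT with TNFa, TGFb or CM. Its log2 differences were -0.05, 0.50 and 0.41 in that order (limma adjusted p = 0.92, 0.099 and 0.22). The part of other cell types in the results below was not tested. In bulk RNA, fewer cells of a type and less RNA per cell cannot be told apart.

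Most of the family was detected. Of 46 members 40 were above 0 in every library, 17 had a mean signal of at least 1000 and 16 had a mean under 100. Only Slc25a41, an ATP-Mg/phosphate carrier, failed the filter of at least 10 in at least 3 libraries, and the other 45 were tested. The summed signal of the 46 members made up 0.182% to 0.190% of all signal in TNFa KO libraries and 0.185% to 0.195% in TNFa WT libraries. With TGFb the share was 0.214% to 0.229% in KO and 0.185% to 0.192% in WT, and with CM it was 0.222% to 0.227% in KO and 0.211% to 0.218% in WT. KO and WT shares overlapped with TNFa and did not overlap with TGFb or CM.

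Per kilobase of exon, averaged over the 18 libraries, the highest signal belonged to the citrate carrier Slc25a1 (2148 per kb), followed by the ADP/ATP exchanger Slc25a5 (1651), the glutathione carrier Slc25a39 (1341), the oxoglutarate-malate carrier Slc25a11 (671) and the ornithine carrier Slc25a15 (657). In several substrate groups 1 member lay far above its relatives on that scale. Among ADP/ATP exchangers Slc25a5 stood at 1651 per kb, Slc25a4, the form known from heart and muscle, at 30.2, and Slc25a31, the testis form, at 2.71. Among aspartate-glutamate carriers Slc25a13, known as citrin, stood at 430.5 per kb and Slc25a12 at 18, and among glutamate carriers Slc25a22 stood at 236 and Slc25a18 at 11. The iron carriers Slc25a37 and Slc25a28 stood at 368 and 44.3 per kb, and the pyrimidine nucleotide carriers Slc25a33 and Slc25a36 at 569 and 23.3. The ATP-Mg/phosphate carriers were spread more evenly, with 589.8 per kb for Slc25a25, 353 for Slc25a24, 91.1 for Slc25a23 and 1.58 for Slc25a41. Slc25a4, Slc25a5 and Slc25a31 are close copies of each other, as are Slc25a15 and Slc25a2, so the split of reads among them is uncertain.

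**Figure D1:**
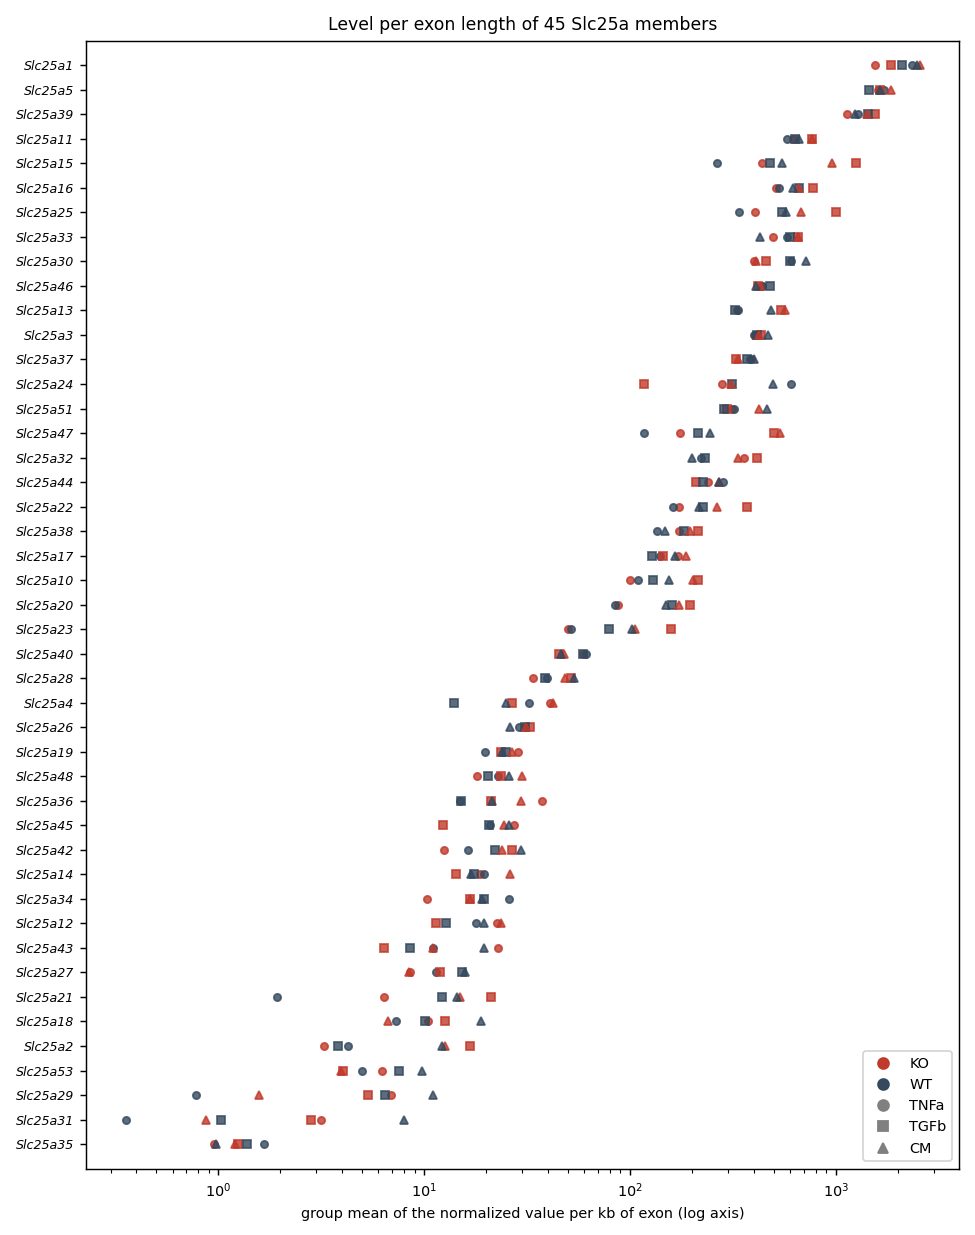
Level of the 45 tested members, as group means of deposited signal per kilobase of exon for the 6 groups on a log axis. Members are ordered by their mean over 18 libraries. By that mean Slc25a1 is the highest at 2148 per kb, and Slc25a5 follows at 1651 per kb.

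KO and WT differed for part of the family, and the same 5 members were called in all 3 treatments. Slc25a15, Slc25a47 and Slc25a32 were higher in KO, and Slc25a24 and Slc25a30 were lower. The share of all tested genes called in all 3 treatments was not determined, so these 5 have no background share beside them. With TNFa 7 of the 45 tested members were called (4 higher and 3 lower), where 7.89% of all 14455 tested genes were called, 4.19% higher and 3.7% lower. With TGFb 10 were called (8 higher and 2 lower), beside 12.2% of all genes, 7.25% higher and 4.95% lower. With CM 6 were called (4 higher and 2 lower), beside 9.39% of all genes, 5.62% higher and 3.77% lower. Averaged over treatments 13 were called (10 higher and 3 lower), beside 20.7% of all genes, 11.2% higher and 9.53% lower. A gene was called at a limma adjusted p below 0.05 over all tested genes. After scaling every library to the same total, the split became 8 higher and 4 lower with TGFb, where 830 of all genes were called higher and 1494 lower. That scaling shifts the all-gene median by -0.11 with TGFb (log2). For the average it became 8 higher and 4 lower, where 1365 of all genes were called higher and 2009 lower. The median log2 difference of the 45 members was 0.01 with TNFa, 0.14 with TGFb, 0.13 with CM and 0.09 for the average, beside 0.02, -0.01, -0.01 and -0.003 for all tested genes. In no KO against WT comparison were the other 30 members called, which does not show that they were equal.

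**Figure D2:**
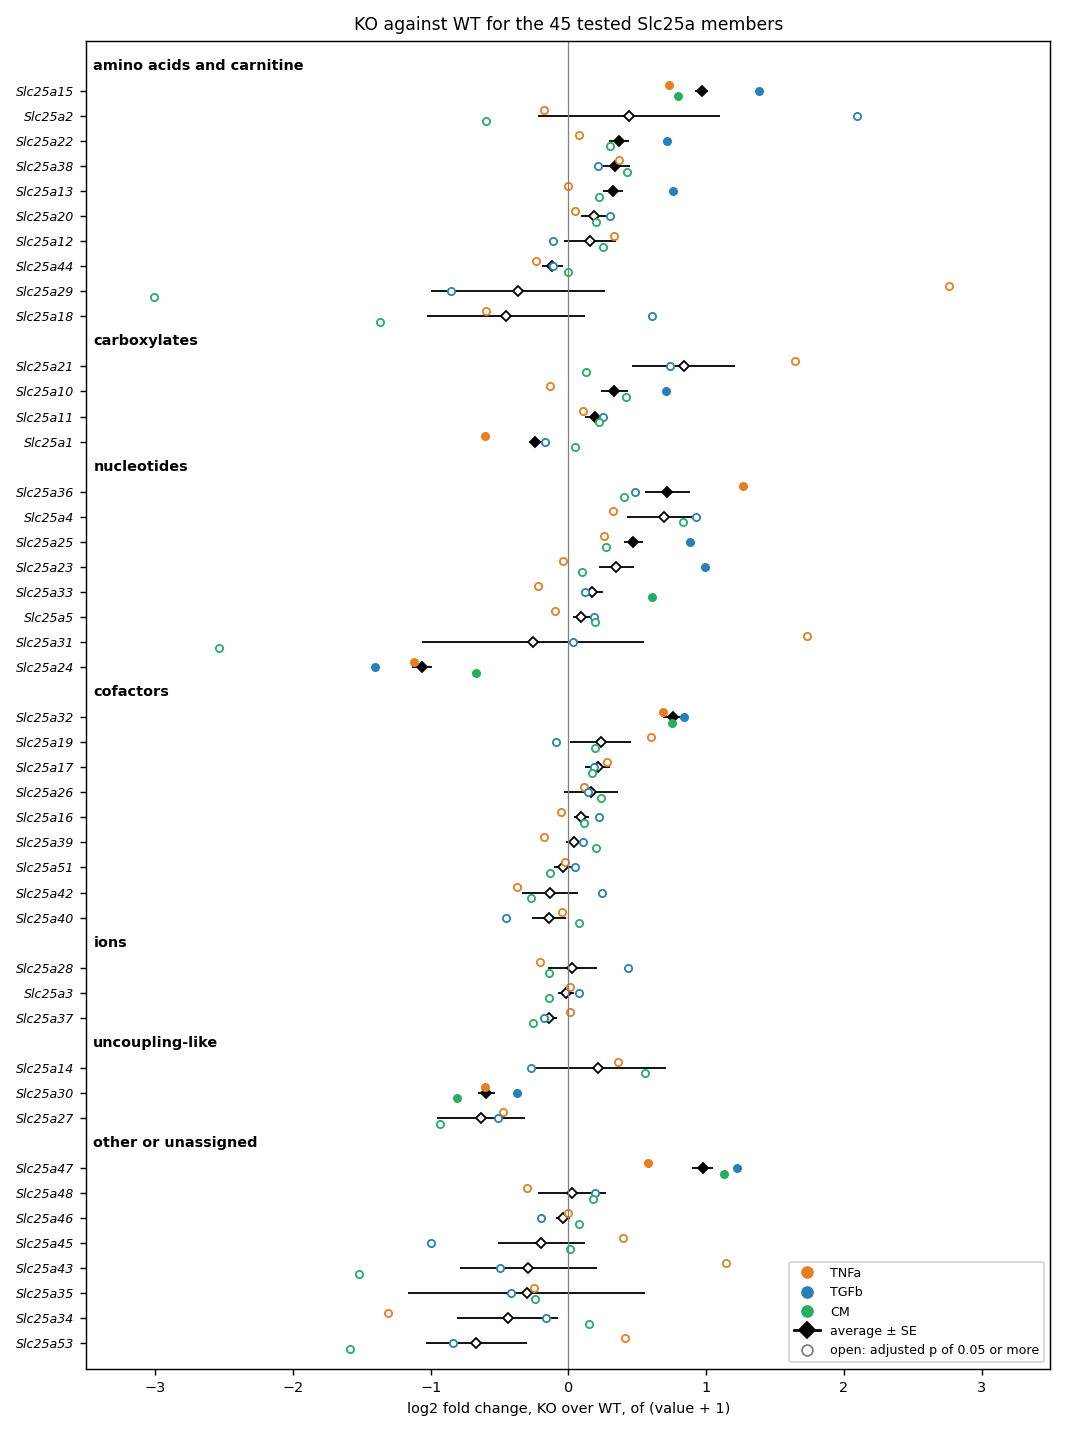
Log2 difference of KO and WT for the 45 tested members, grouped by substrate, with TNFa, TGFb, CM and the average. Bars of 1 standard error are drawn for the average only. Slc25a15, Slc25a47 and Slc25a32 lie above 0 and Slc25a24 and Slc25a30 below 0 in all 3 treatments.

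Of the 10 tested amino acid and carnitine carriers, 1 was higher in KO with TNFa, 3 with TGFb, 1 with CM and 4 for the average, and 0 were lower in any of these. Over all tested genes 4.19%, 7.25%, 5.62% and 11.2% were called higher in the same order. Called lower were 3.7%, 4.95%, 3.77% and 9.53%. Slc25a15 (chromosome 8, 22865567 to 22888613 on mm39, minus strand) brings ornithine into the matrix, where the urea cycle enzyme Otc uses it. Its signal was 2558, 2500.0 and 2379 in TNFa KO libraries and 1568, 1492 and 1426 in TNFa WT libraries. With TGFb it reached 7226, 6997 and 6886 in KO and 2715, 2788 and 2595 in WT, and with CM 5382, 5458 and 5271 in KO and 3394, 2917 and 2995 in WT. Every KO library lay above every WT library of its treatment. The log2 differences were 0.73 ± 0.08 with TNFa, 1.38 ± 0.08 with TGFb and 0.79 ± 0.08 with CM (limma adjusted p = 3.8e-07, 3.5e-13 and 6.1e-08).

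Slc25a22, which brings glutamate into the matrix, was called with TGFb, at 2229, 2003 and 2453 in KO libraries and 1454, 1340.2 and 1267 in WT libraries (0.72 ± 0.13, limma adjusted p = 1.5e-04). Its TNFa libraries overlapped, at 1247, 869.6 and 993 in KO and 872, 1031 and 1021 in WT, and its CM libraries, at 1705, 1595 and 1489 in KO and 1405, 1377 and 1109.8 in WT, did not overlap but missed the threshold (limma adjusted p = 0.15). Slc25a13 exports aspartate in exchange for glutamate and feeds both the urea cycle and the malate-aspartate shuttle. With TGFb it stood at 1966, 1874 and 2320.2 in KO libraries and 1109.7, 1531 and 1038 in WT libraries (0.76 ± 0.13, limma adjusted p = 5.4e-05). With TNFa it stood at 1310.3, 1342 and 1140.0 in KO and 1323, 1359 and 1130.0 in WT, and the groups overlapped. With CM it stood at 2229, 2168 and 2052 in KO and 1682, 1952 and 1903 in WT, without overlap but short of the threshold (limma adjusted p = 0.33).

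The glycine carrier Slc25a38, which supplies heme synthesis, was called for the average only, at 0.34 ± 0.11 (limma adjusted p = 0.035). Its signal was 598, 387 and 446 in KO and 421, 271 and 420.1 in WT with TNFa, 689, 533 and 543 in KO and 442, 525 and 547 in WT with TGFb, and 510.4, 532 and 569 in KO and 462, 304 and 456 in WT with CM. KO and WT ranges overlapped with TNFa and TGFb and not with CM, and the call was lost in 7 of the 18 fits that left out a library and with equal totals (limma adjusted p = 0.064) or quantile normalization. Slc25a20 (carnitine and acylcarnitine), Slc25a44 (branched-chain amino acids), Slc25a12, Slc25a18, Slc25a29 and Slc25a2 were not called in any KO against WT comparison.

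Among the cofactor carriers Slc25a32 (chromosome 15, 38954626 to 38976111 on mm39, minus strand), linked to folate and flavin import, was called. Its signal was 2220.2, 2390.1 and 1939 in TNFa KO libraries and 1343, 1459.8 and 1253 in TNFa WT libraries. With TGFb it reached 2434, 2794 and 2361 in KO and 1545, 1415 and 1283 in WT, and with CM 2296, 2048 and 1782 in KO and 1503, 986 and 1182 in WT. No WT library reached a KO library of its treatment. The differences were 0.69 ± 0.13, 0.84 ± 0.13 and 0.75 ± 0.13 with TNFa, TGFb and CM (limma adjusted p = 6.1e-04, 1.9e-05 and 1.5e-04), and the KO effect was not shown to differ between treatments (F-test limma adjusted p = 0.88). Slc25a32 lies 4.81 Mb past Mtdh on the same chromosome. Within 5 Mb of Mtdh, a window chosen after the values were seen, 14 of 40 tested genes were called higher and 7 lower for the average, 52.5% against the background of 20.7%. The other 8 tested cofactor carriers were not called, among them Slc25a51 (NAD, average -0.04 ± 0.07), Slc25a39 (glutathione, 0.04 ± 0.06) and Slc25a16 (linked to coenzyme A, 0.09 ± 0.05).

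The nucleotide carriers moved in both directions. Slc25a24 (chromosome 3, 109030465 to 109075773 on mm39, plus strand), a calcium-dependent exchanger of ATP-Mg for phosphate, was lower in KO in every treatment. It stood at 1054, 881 and 937 in TNFa KO libraries and 1835, 2173 and 2242 in TNFa WT libraries. With TGFb it stood at 377, 439 and 391 in KO and 921, 1128 and 1159 in WT, and with CM at 1068, 1135 and 982 in KO and 1482, 1674 and 1931 in WT. Every KO library lay below every WT library of its treatment. The differences were -1.12 ± 0.13, -1.40 ± 0.13 and -0.67 ± 0.13 with TNFa, TGFb and CM (limma adjusted p = 3.4e-07, 1.7e-09 and 5.9e-04).

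Its paralogs Slc25a25 and Slc25a23, which carry the same substrates, were instead higher in KO with TGFb. Slc25a25 stood at 7683, 7701 and 8216 in TGFb KO libraries and 3625, 4406 and 4841 in TGFb WT libraries (0.88 ± 0.12, limma adjusted p = 4.6e-06). With TNFa it stood at 3272, 2861 and 3382 in KO and 2715, 2784 and 2463 in WT (0.26 ± 0.12, limma adjusted p = 0.24), and with CM at 4877, 5526 and 5618 in KO and 5861, 3678 and 3963 in WT (0.28 ± 0.12, limma adjusted p = 0.19), where the groups overlapped. Slc25a23 stood at 1062, 696 and 755 in TGFb KO libraries and 362, 477 and 412 in TGFb WT libraries, without overlap (0.99 ± 0.22, limma adjusted p = 0.0021). For both genes the KO effect was not shown to differ between treatments (F-test limma adjusted p = 0.064 for Slc25a25 and 0.12 for Slc25a23). The gene models of Slc25a25 and Slc25a23 overlap Naif1 and Crb3 on the opposite strand by 989 and 759 bases, and whether counting used the strand is not given, so reads there cannot be told apart.

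The pyrimidine nucleotide carriers Slc25a36 and Slc25a33 were called in different treatments. Slc25a36 stood at 245, 461 and 371 in TNFa KO libraries and 135, 154 and 142 in TNFa WT libraries (1.27 ± 0.29, limma adjusted p = 0.004). With TGFb it stood at 163, 261 and 185 in KO and 108, 172 and 154 in WT, and with CM at 316, 174 and 365 in KO and 210.4, 199.98 and 206 in WT, and in both the groups overlapped. Slc25a33 was called with CM, at 956, 1363 and 1407 in KO libraries and 791, 734 and 894 in WT libraries (0.61 ± 0.14, limma adjusted p = 0.0043). The ADP/ATP exchangers were not called: Slc25a5 differed by 0.09 ± 0.06 and Slc25a4 by 0.69 ± 0.27 on average (limma adjusted p = 0.32 and 0.066).

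Of the 4 tested carboxylate carriers, 2 were higher in KO for the average (Slc25a10 and Slc25a11) and 1 was lower (Slc25a1). Over all tested genes 11.2% were called higher and 9.53% lower for the average. Slc25a1 moves citrate to the cytosol, where it is cleaved to acetyl-CoA for lipid synthesis. With TNFa it was lower in KO, at 3425, 3099.7 and 3506 in KO libraries and 5157, 5012 and 5039 in WT libraries (-0.60 ± 0.08, limma adjusted p = 5.1e-06). With TGFb it stood at 4262, 3838 and 4009 in KO and 4509, 4283 and 4858 in WT (-0.17 ± 0.08, limma adjusted p = 0.19), and with CM at 5713, 5332 and 5562 in KO and 5248, 5435 and 5365 in WT (0.05 ± 0.08). The CM groups overlapped, while the TGFb groups were separated by a narrow gap.

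The dicarboxylate carrier Slc25a10, which exchanges malate or succinate for phosphate, was called with TGFb, at 661, 800.2 and 747 in KO libraries and 453, 449.5 and 442 in WT libraries (0.71 ± 0.17, limma adjusted p = 0.004). With TNFa it stood at 298, 383 and 352 in KO and 324, 457 and 356 in WT, which overlapped, and with CM at 694, 716 and 699 in KO and 545, 636 and 420.0 in WT, which did not. Slc25a11, the oxoglutarate-malate carrier of the malate-aspartate shuttle, was called for the average only (0.19 ± 0.07, limma adjusted p = 0.048), and its call was lost in 13 of the 18 fits that left out a library. It was also lost with no filter, quantile normalization or equal totals (0.14, limma adjusted p = 0.15). Its signal was 1292, 1426 and 1226 in KO and 1254, 1106 and 1315 in WT with TNFa, 1794, 1262 and 1804 in KO and 1352, 1299.6 and 1375 in WT with TGFb, and 1656, 1698 and 1545 in KO and 1336, 1365 and 1507 in WT with CM. With CM the groups did not overlap, and with TNFa and TGFb they did. The gene models of Slc25a11 and Rnf167 overlap on opposite strands by 245 bases.

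Among uncoupling-protein-like carriers Slc25a30 (chromosome 14, 75997557 to 76024477 on mm39, minus strand), known from kidney, was lower in KO in every treatment. It stood at 1691, 1894 and 1887 in TNFa KO libraries and 2794, 2443 and 3100.2 in TNFa WT libraries. With TGFb it stood at 2117, 1931 and 2269 in KO and 2977, 2552 and 2675 in WT, and with CM at 1938, 2039.9 and 1645 in KO and 3039.7, 3392 and 3389.8 in WT. KO and WT libraries did not overlap in any treatment. The differences were -0.60 ± 0.11, -0.38 ± 0.11 and -0.81 ± 0.11 with TNFa, TGFb and CM (limma adjusted p = 2.5e-04, 0.015 and 2.6e-06). The call with TGFb was lost without TGFb KO 2 (-0.32, limma adjusted p = 0.074) or without TGFb WT 1 (-0.31, limma adjusted p = 0.10). Slc25a14 and Slc25a27 of the same group were not called.

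The 3 ion carriers showed no call in any KO against WT comparison: Slc25a3, which imports the phosphate for ATP synthesis, differed by -0.02 ± 0.06 on average, and the iron carriers Slc25a37 and Slc25a28 by -0.14 ± 0.06 and 0.03 ± 0.18 (limma adjusted p = 0.89, 0.1 and 0.94).

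Of the 8 tested members with another or no assigned role, Slc25a47 was called. Slc25a47 (chromosome 12, 108801972 to 108822741 on mm39, plus strand) is a carrier known for its enrichment in liver. Its signal was 554, 539 and 468 in TNFa KO libraries and 346, 362 and 337 in TNFa WT libraries. With TGFb it reached 1605, 1269.5 and 1629.8 in KO and 653, 667 and 593 in WT, and with CM 1611, 1718 and 1449 in KO and 655, 732 and 802 in WT. All KO libraries lay above the WT libraries of their treatment. The differences were 0.57 ± 0.13, 1.23 ± 0.13 and 1.13 ± 0.13 with TNFa, TGFb and CM (limma adjusted p = 0.0051, 6.0e-08 and 5.1e-07). Slc25a29, a basic amino acid carrier 162 bases away on the opposite strand, had a mean signal under 100 and was not called in KO against WT. Slc25a46, an outer membrane protein that shapes mitochondria, differed by -0.04 ± 0.05 on average (limma adjusted p = 0.66).

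**Figure D3:**
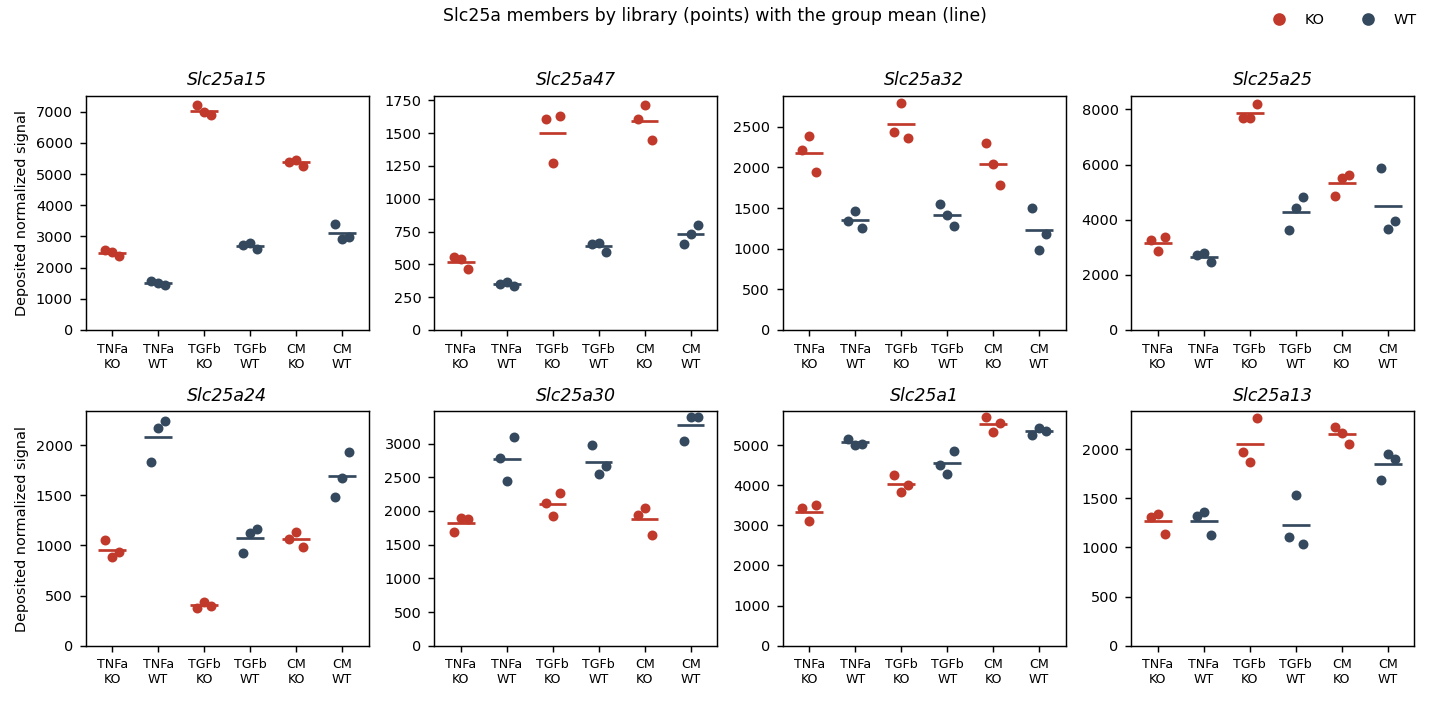
Deposited normalized signal in every library for 8 members, with 3 KO and 3 WT libraries per treatment and a bar at each group mean. KO lies above WT in all treatments for Slc25a15, Slc25a47 and Slc25a32 and below it for Slc25a24 and Slc25a30.

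Promoter sequence is shown for Slc25a15, Slc25a47 and Slc25a24, which had the largest average differences among the 13 members called for the average. Each window holds 300 bases, from 250 before to 50 after a start listed by RefSeq on GRCm38.p6, written on the gene's own strand, with matches on either strand in capitals to GGGCGG (the GC box bound by SP factors) or CCAAT (bound by NFY), which do not overlap in these windows. The windows are chr8:22398572-22398871 (minus strand) for Slc25a15, chr12:108850879-108851178 (plus strand) for Slc25a47 and chr3:109122899-109123198 (plus strand) for Slc25a24. The Slc25a15 window is 1 of 2 listed for that gene.
Slc25a15: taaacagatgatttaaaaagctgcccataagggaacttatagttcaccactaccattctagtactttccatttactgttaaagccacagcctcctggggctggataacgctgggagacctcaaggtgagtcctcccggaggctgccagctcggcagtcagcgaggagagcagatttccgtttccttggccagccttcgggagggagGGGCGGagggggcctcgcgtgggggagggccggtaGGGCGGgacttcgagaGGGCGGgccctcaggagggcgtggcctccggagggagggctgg
Slc25a47: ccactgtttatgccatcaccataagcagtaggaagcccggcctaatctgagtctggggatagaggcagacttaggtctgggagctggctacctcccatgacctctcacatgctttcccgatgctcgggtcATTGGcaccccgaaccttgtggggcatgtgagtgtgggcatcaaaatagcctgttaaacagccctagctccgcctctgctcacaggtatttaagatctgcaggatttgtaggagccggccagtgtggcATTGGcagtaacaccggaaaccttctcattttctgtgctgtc
Slc25a24: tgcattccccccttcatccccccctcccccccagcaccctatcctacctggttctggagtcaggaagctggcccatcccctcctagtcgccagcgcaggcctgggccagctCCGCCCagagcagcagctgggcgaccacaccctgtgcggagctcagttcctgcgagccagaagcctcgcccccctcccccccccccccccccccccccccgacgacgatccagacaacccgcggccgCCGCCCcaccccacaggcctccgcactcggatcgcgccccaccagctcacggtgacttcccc
The windows shown for Slc25a15 and Slc25a24 hold 3 and 2 GC boxes, while that of Slc25a47 holds none and has 2 CCAAT matches. The other Slc25a15 window (chr8:22398228-22398527) holds 5 GC boxes and an E-box. RefSeq windows were counted for 35 members, 45 windows in all. The counts leave out 1 chromosome, for the family and for all windows alike. GGGCGG occurred in 38 of the 45 (84.4%) and in 35.7% of all 32851 counted windows, and CCAAT in 22 (48.9%) and 37.4%. The E-box CACGTG occurred in 8 (17.8%) and 7.15% of all windows, and the CREB motif TGACGTCA in 2 (4.44%) and 1.79%. The median GC content was 59.0% for the family and 52.7% for all windows. The letters CAAAGTCCA (HNF4A), TGTTTAC (FOXA) and TTGCGCAA (CEBP), as well as the NRF1 palindrome were in 0 of the 45 family windows and in 0.475%, 3.65%, 0.183% and 0.971% of all windows. A match describes letters and is no evidence of binding.

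The size of the KO effect differed between treatments for 3 members by the F-test, Slc25a15, Slc25a1 and Slc25a13 (limma adjusted p = 0.0038, 0.0053 and 0.041), where 1.7% of all tested genes were called. Between pairs of treatments, the KO effect was lower with TNFa than with TGFb for 2 members and higher for 0, where 1.1% of all genes differed (0.249% higher and 0.851% lower). It was higher with CM than with TNFa for 2 and lower for 0 (0.63% of all genes, 0.574% higher and 0.0553% lower), and lower with CM than with TGFb for 1 (0.491% of all genes, 0.242% higher and 0.249% lower). By limma at an unadjusted p below 0.05, 1 member was higher and 9 were lower for TNFa minus TGFb, beside 5.6% and 7.4% of all genes. On the same basis 6 were higher and 5 lower for CM minus TNFa (7.35% and 5.95% of all genes), and 3 were higher and 6 lower for CM minus TGFb (5.43% and 5.44%). For Slc25a15 the rise was smaller with TNFa than with TGFb, with a difference of -0.65 ± 0.12 (limma adjusted p = 0.0042), and smaller with CM than with TGFb, with a difference of -0.59 ± 0.12 (limma adjusted p = 0.022). For Slc25a1 the KO effect with CM exceeded that with TNFa by 0.65 ± 0.11 (limma adjusted p = 0.0045), and the other member called there was Slc25a33 (0.83 ± 0.20, limma adjusted p = 0.046), which the F-test did not call. For Slc25a13 the effect with TNFa was below that with TGFb, with a difference of -0.76 ± 0.18 (limma adjusted p = 0.029). The F-test gave limma adjusted p of 0.11 for Slc25a22, 0.12 for Slc25a10, 0.057 for Slc25a33 and 0.38 for Slc25a36, members called with 1 treatment. Slc25a24 and Slc25a47, called in all treatments, had 0.063 and 0.097 in the same test. The count was 5 without TGFb KO 2 and 7 without CM WT 3, and the call of Slc25a13 was lost in 11 of the 18 fits that left out a library.

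Treatments were then compared within each genotype. The TNFa libraries serve in both the comparison with TGFb and the comparison with CM, so those results share samples. In KO, 17 members were called between TNFa and TGFb (3 higher and 14 lower with TNFa), beside 22.4% of all genes, 10.1% higher and 12.3% lower. In WT, 8 were called (1 higher and 7 lower), beside 13.4% of all genes, 5.33% higher and 8.06% lower. Scaled to equal totals, which moves the median of all genes by 0.25 in KO and 0.11 in WT (log2), the split was 10 higher and 10 lower in KO, where 3756 of all genes were called higher and 1119 lower. In WT it was then 5 higher and 5 lower, where 1370 of all genes were called higher and 873 lower. Called lower with TNFa in both genotypes were 7 members, Slc25a15, Slc25a47, Slc25a25, Slc25a22, Slc25a20, Slc25a16 and Slc25a21. Slc25a24 was higher with TNFa in both. The share of all genes called lower in both genotypes was not determined. By limma at an unadjusted p below 0.05, 9 of 9 hepatocyte markers were lower with TNFa than with TGFb in KO and 7 in WT. At that threshold 16.8% of all genes were lower in KO and 13.2% in WT. In WT, equal totals ended the calls of Slc25a16 (-0.21, limma adjusted p = 0.12) and Slc25a22 (-0.36, limma adjusted p = 0.061). The WT call of Slc25a16 was also lost without TNFa WT 2 (-0.23) or TGFb WT 1 (-0.29), and that of Slc25a22 without TNFa WT 1 (-0.40) or TGFb WT 1 (-0.42). In KO, 12 members were higher with CM than with TNFa and 0 were lower by limma (12.7% of all genes were called, 8.38% higher and 4.32% lower). By limma at an unadjusted p below 0.05, 17 members were higher and 1 was lower, beside 13.2% and 10.6% of all genes. At that threshold 9 of 9 hepatocyte markers were also higher with CM than with TNFa in KO. With equal totals 9 were higher and 1 lower, where 878 of all genes were called higher and 1906 lower. In WT, 10 were higher and 1 was lower (12.3% of all genes, 6.81% higher and 5.46% lower), and the total of 11 fell to 7 without CM WT 2. CM and TGFb differed for 7 members in KO (4 higher and 3 lower with CM), beside 10.6% of all genes, 5.2% higher and 5.39% lower. In WT they differed for 4 (3 higher and 1 lower), beside 11.8% of all genes, 5.76% higher and 6.09% lower. With equal totals the split was 5 higher and 2 lower in KO, 71.4% higher, beside 71.6% of the calls over all genes. In WT it was then 6 higher and 0 lower, beside 63.8% higher of the calls over all genes.

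Slc25a47 showed a large treatment difference, visible in the values above: TNFa minus TGFb was -1.52 ± 0.13 in KO and -0.87 ± 0.13 in WT (limma adjusted p = 3.5e-10 and 1.5e-05). For Slc25a15 that difference was -1.50 ± 0.08 in KO and -0.85 ± 0.08 in WT (limma adjusted p = 5.1e-14 and 9.5e-09), and for Slc25a25 it was -1.31 ± 0.12 and -0.68 ± 0.12 (limma adjusted p = 1.3e-09 and 1.5e-04). Slc25a24 ran the other way, with 1.25 ± 0.13 in KO and 0.96 ± 0.13 in WT (limma adjusted p = 6.1e-09 and 1.6e-06). In both genotypes, then, Slc25a24 was lowest with TGFb by group mean, where its paralog Slc25a25 was highest in KO.

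Slc25a20, which carries acylcarnitines into the matrix for fatty acid oxidation, was lower with TNFa than with the other treatments. In KO it stood at 488, 408 and 382 with TNFa, 1032, 772 and 1026 with TGFb and 787, 851 and 873 with CM. In WT it stood at 383, 431 and 414 with TNFa, 671, 672 and 974 with TGFb and 741, 729 and 713 with CM. Every TNFa library lay below every other library of its genotype, and CM exceeded TNFa by 0.98 ± 0.15 in KO and 0.83 ± 0.15 in WT (limma adjusted p = 2.7e-05 and 3.2e-04).

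The NAD carrier Slc25a51 was highest with CM. In KO it stood at 2562, 2275 and 2194 with CM, 1799, 1773 and 1609 with TNFa and 1435, 1766 and 1701 with TGFb. In WT it stood at 2765, 2528 and 2406 with CM, 2007, 1789 and 1513 with TNFa and 1385, 1606 and 1759.7 with TGFb. Every CM library lay above every other library of its genotype, and CM exceeded TGFb by 0.52 ± 0.11 in KO and 0.70 ± 0.11 in WT (limma adjusted p = 0.0023 and 6.5e-05). The oxoadipate carrier Slc25a21 was lower with TNFa at low signal, at 55.6, 29.4 and 8.18 with TNFa and 127, 116 and 67.0 with TGFb in KO, and 14.4, 1.52 and 12.3 with TNFa and 68.4, 51.3 and 59.8 with TGFb in WT. Its KO difference of -2.003 was -1.28 without TNFa KO 3 and then no longer called (limma adjusted p = 0.19), and it also lost the call without TGFb KO 1 or TGFb KO 2.

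**Figure D4:**
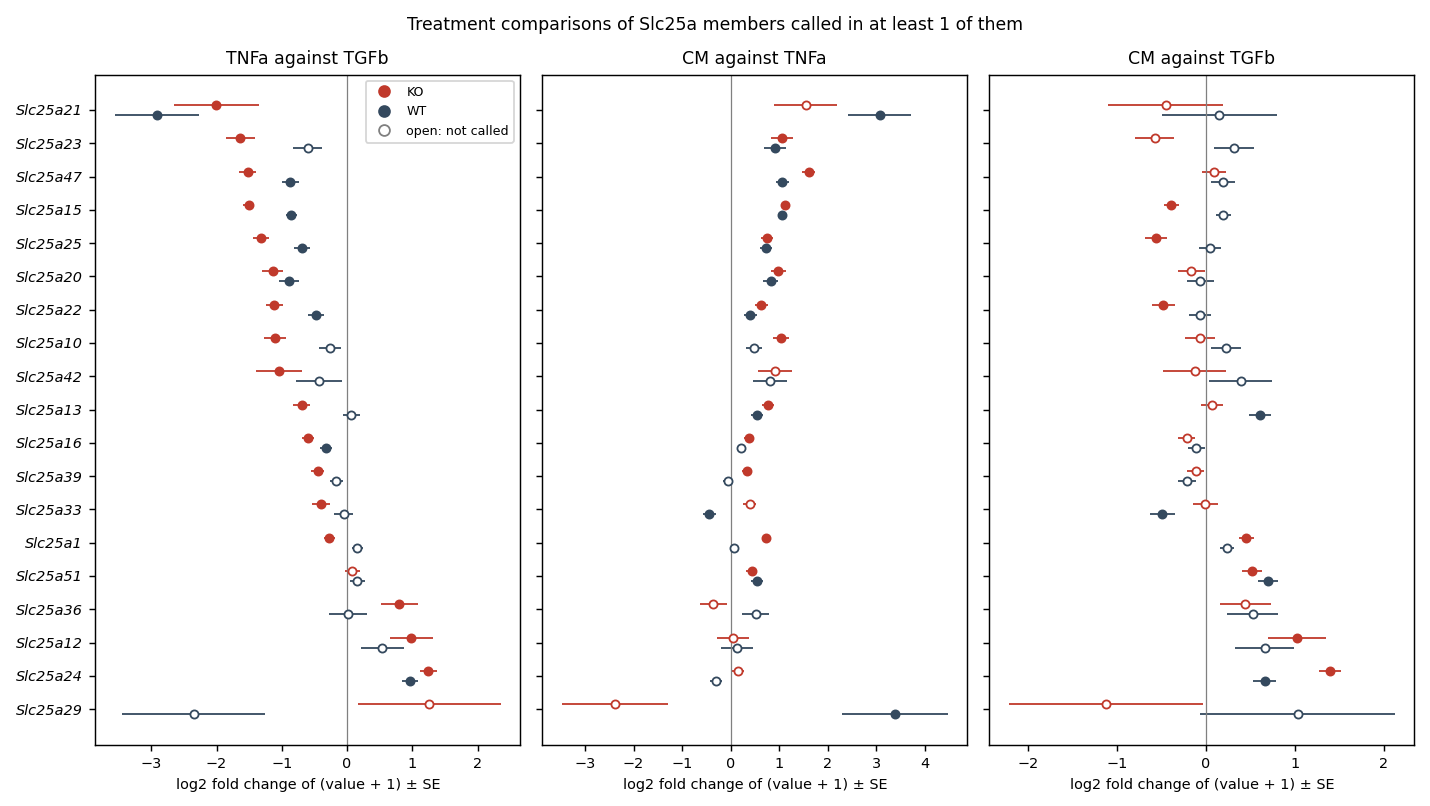
Log2 differences between treatments in KO and in WT hepatocytes for 19 members, with bars of 1 standard error. Slc25a15, Slc25a47 and Slc25a25 lie below 0 for TNFa against TGFb in both genotypes and Slc25a24 lies above 0.

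Genes that work beside these carriers were read from lists chosen with earlier results of these data known, so their counts are descriptions. Of all tested genes, 4.19%, 7.25% and 5.62% were called higher in KO with TNFa, TGFb and CM. Called lower were 3.7%, 4.95% and 3.77% in the same order. Of 6 urea cycle genes, 5 were higher in KO in each treatment and 0 lower (median log2 difference 0.70 with TNFa, 1.20 with TGFb and 0.90 with CM, beside 0.02, -0.01 and -0.01 for all tested genes). Cps1, the entry enzyme, rose by 0.77 ± 0.09, 1.38 ± 0.09 and 1.05 ± 0.09 with TNFa, TGFb and CM. Otc, which joins the imported ornithine to carbamoyl phosphate, rose by 0.63 ± 0.09, 1.12 ± 0.09 and 0.77 ± 0.09. Nags, which makes the activator of Cps1 and is named here after its values were seen, was the 1 gene not called (0.07 ± 0.15 on average). Slc25a15 thus had the direction of these 5 genes, and like them it was lower with TNFa than with TGFb in KO. There 6 of the 6 urea cycle genes were called lower, beside 12.3% of all genes. By limma at an unadjusted p below 0.05, 9 of 9 hepatocyte markers were lower there too, beside 16.8% of all genes. Cps1 is in both lists. Lower signal with TNFa than with TGFb in KO was therefore not particular to the urea cycle. In KO against WT the marker calls for the average went in both directions, as given above.

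Among the 6 enzymes of the malate-aspartate and glycerol phosphate shuttles, Mdh1 rose in KO in all treatments (0.29 ± 0.08, 0.83 ± 0.08 and 0.67 ± 0.08 with TNFa, TGFb and CM), and Got1 with TGFb and CM (0.64 ± 0.09 and 0.44 ± 0.09). Both enzymes are cytosolic. Their mitochondrial partners Mdh2 and Got2 were not called (-0.01 ± 0.07 and 0.01 ± 0.05 on average), nor were Gpd1 and Gpd2 (0.13 ± 0.06 and -0.06 ± 0.06). The median average difference of the 6 was 0.07.

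Of 22 citric acid cycle genes, 0 were called in KO against WT with TNFa, 12 were higher with TGFb and 7 with CM, and 0 were lower in any (median log2 difference 0.03 with TNFa, 0.35 with TGFb and 0.18 with CM). Idh2, the NADP-linked isocitrate dehydrogenase, differed by 0.27 ± 0.13 with TNFa and rose by 0.78 ± 0.13 with TGFb and 0.78 ± 0.13 with CM. Of 20 nuclear genes of oxidative phosphorylation, 0, 6 and 12 were higher with TNFa, TGFb and CM and 0 were lower (median -0.04, 0.28 and 0.55 in the same order). Beside these calls, 4.19%, 7.25% and 5.62% of all genes were called higher with TNFa, TGFb and CM. By limma at an unadjusted p below 0.05 with TNFa, 0 citric acid cycle genes were higher and 1 was lower. For oxidative phosphorylation the count was 0 in either direction. At that threshold 10.9% of all genes were higher and 9.71% lower with TNFa. Cyc1, which carries electrons in complex III, and Atp5b, a subunit of ATP synthase, rose by 0.43 ± 0.08 and 0.25 ± 0.05 on average.

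Of 10 mitochondrial one-carbon genes, which share folate with Slc25a32, 4 were higher and 3 lower for the average. Sardh, a folate-linked sarcosine dehydrogenase, rose by 0.88 ± 0.07, while Aldh1l2 and Mthfd1l, which act on formyl-folate, were lower, at -0.82 ± 0.12 and -0.35 ± 0.06. Of 7 genes of lipid synthesis from citrate, 1 was higher and 1 lower with TNFa and 3 were higher with TGFb, with Fasn, the fatty acid synthase, at 0.49 ± 0.10 with TGFb. Fasn was not called with TNFa or CM (-0.05 ± 0.10 and 0.03 ± 0.10). Scd1 and Elovl6 were the genes of this list called for the average (0.37 ± 0.06 and 0.38 ± 0.06). Scd1 was also called with CM (0.34 ± 0.10). Of 6 carnitine shuttle genes 2 were higher with TGFb, Cpt1a (0.85 ± 0.15) and Crot (0.69 ± 0.08). Crot was also called higher with CM (0.30 ± 0.08). Of all genes, 11.2% were called higher and 9.53% lower for the average, 4.19% and 3.7% with TNFa, and 7.25% and 4.95% with TGFb. With CM these shares were 5.62% and 3.77%. The median average difference was 0.03 for the one-carbon genes, 0.06 for lipid synthesis and 0.08 for the carnitine shuttle.

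For the average, where 11.2% of all genes were called higher and 9.53% lower, the remaining lists were as follows. Of 17 genes of carrier import, the TIM and TOM complexes that insert Slc25 proteins, 1 was higher (Timm8a1, 0.33 ± 0.10). Of 24 other mitochondrial transporters 2 were higher and 1 was lower, among them Mpc2 of the pyruvate carrier (0.50 ± 0.08). Of 14 genes of heme and iron-sulfur synthesis 3 were higher, led by Alad (0.57 ± 0.08), and of 10 genes of mitochondrial biogenesis 2 were higher, Ppargc1a (0.42 ± 0.15) and Tfam (0.25 ± 0.08). Among single treatments Ppargc1a was called with TGFb (1.10 ± 0.26) and not with TNFa or CM (-0.09 ± 0.26 and 0.24 ± 0.26). Tfam was called in no single treatment. Of the carrier relatives outside the Slc25a names, Mtch1, Mtch2 and Ucp2 were not called (0.03 ± 0.15, 0.06 ± 0.05 and 0.32 ± 0.21). The median average difference was 0.01 for import, 0.03 for other transporters, 0.08 for heme and iron-sulfur synthesis and 0.03 for biogenesis, beside -0.003 for all tested genes.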

How the data were processed

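The authors deposited 1 table of normalized signal per gene for all 18 libraries of mouse hepatocytes, which its name describes as DESeq2-normalized values. RNA was depleted of ribosomal RNA before library construction, per the labels' protocols. The authors used STAR 2.7.8a, Partek, DESeq2 and the mm39 build, per the submitters' processing notes. No source used here gives the counting step or its use of strand. Estimated depth was 19.4 to 35.6 M reads, and 72.0% to 77.4% of values up to 200 reads lay within 0.05 of a whole read, so whole reads were not recovered and no count test was run.

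Values were analysed as log2(value + 1) with limma 3.58.1 (limma-trend, R 4.3.3) and 6 group means, so the spread is shared by all groups (12 residual and 16.95 prior degrees of freedom). Fold changes on this scale understate the change of low genes. Genes at 10 or more in at least 3 libraries were kept (14455 of 16873), and Benjamini-Hochberg adjustment ran over all of them with a threshold of 0.05. An F-test asked whether the KO effect differed between treatments. The code was tested on simulated data. No pair of libraries was identical, and replicate correlations were 0.937 to 0.961.

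Values per library were given for members called for the average or in several treatments, for members passing the F-test and for the 8 with the smallest p between treatments. In each list of other genes, a gene could be named if it was among the 3 called genes with the smallest p in any comparison, and not all such genes are named; the shuttle enzymes and carrier relatives could all be named, and Nags is an exception. The members and lists were chosen with earlier results of these data known. Levels per kilobase used exon lengths of GENCODE vM21, and promoters came from RefSeq on GRCm38.p6, while file coordinates are mm39. Alternatives covered the pseudocount, the filter, the scaling, library weights, replicate blocks, the groups in the fit and each library left out.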

Additional observations from a re-analysis of the deposited data

Results flagged for a closer look

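For 3 members the KO effect differed between treatments by limma's F-test over all tested genes. Slc25a15, the ornithine carrier, had an adjusted p of 0.0038, with a rise in KO of 0.73 ± 0.08 with TNFa, 1.38 ± 0.08 with TGFb and 0.79 ± 0.08 with CM. Slc25a1, the citrate carrier, had an adjusted p of 0.0053, with -0.60 ± 0.08, -0.17 ± 0.08 and 0.05 ± 0.08. Slc25a13, the aspartate-glutamate carrier, had an adjusted p of 0.041, with -0.01 ± 0.13, 0.76 ± 0.13 and 0.22 ± 0.13.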

How the results depend on the processing

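Of 98 called results of single members, 0 changed sign under the 11 other settings and the 18 fits that left out a library. The threshold was kept under every alternative by 75, lost under another setting by 20 and lost only with a library left out by 3, and 45 uncalled results passed under some alternative. Members called between CM and TNFa in WT numbered 11, and 7 to 11 with a library left out. Members passing the F-test numbered 3, with 7 under library weights and 2 to 7 with a library left out; the cause was not tested. With a library left out, the KO against WT counts were 7 to 8 with TNFa, 9 to 11 with TGFb, 6 to 7 with CM and 11 to 15 for the average. Between TNFa and TGFb they were 12 to 18 in KO and 6 to 9 in WT, between CM and TNFa 11 to 13 in KO, and between CM and TGFb 5 to 7 in KO and 3 to 5 in WT. For Slc25a13 the F-test adjusted p reached 0.14. With equal totals the TNFa against TGFb difference of Slc25a1 in KO was -0.02 (limma adjusted p = 0.91), against -0.27, and that of Slc25a33 was -0.14 (limma adjusted p = 0.49), against -0.40. Same-numbered libraries are not stated to share a mouse, so the numbers were not used as pairs. Checked after the fit, same-numbered libraries did not deviate together (correlations -0.07 to 0.05). With the replicate block the KO against WT counts were 7 with TNFa, 10 with TGFb, 6 with CM and 13 for the average, of which 12 were among the 13 called without it (Slc25a11 was lost, limma adjusted p = 0.054, and Slc25a23 gained, limma adjusted p = 0.034), and the F-test count was 3. The block counts between TNFa and TGFb were 17 in KO and 9 in WT, between CM and TNFa 12 and 12, and between CM and TGFb 6 and 4. Depth limits the 16 members with a mean under 100, where a missed threshold does not show equality.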
